A study of Rattus norvegicus with 6 samples.

Results

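Genes of glycolysis and of the response to hypoxia were examined in rat mesenchymal stem cells that the labels call EMSC and give as derived from nasal mucosa. The set had 48 genes, chosen with earlier results of these data known, so the shares of members called are descriptions. By gene symbol, 46 matched a row of the deposited tables exactly, out of 20653 rows in all. The other members, Car9 and Car12, stood in the tables under their older symbols Ca9 and Ca12. They are described here under their current names but are left out of the member counts. NPS-EMSC, cells that overexpress neuropeptide S per the series title, gave 3 libraries, and EMSC gave 3 libraries. All 6 libraries were labelled as primary cell lines of genotype SD, with no age, and were made from TRIzol-extracted total RNA. No label says whether EMSC carried a control vector, which promoter drove the transgene or whether the replicates were separate cultures or animals. The p-values therefore measure the spread between these libraries, which may be technical, and effects of gene delivery and of neuropeptide S cannot be told apart. The libraries held 39082245 to 39511976 counted reads in NPS-EMSC and 39314098 to 40261205 in EMSC. Nps, the neuropeptide S precursor gene, was counted 93566, 77014 and 85916 times in NPS-EMSC, against 0, 0 and 10 times in EMSC, so the transgene followed the labels.

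Glycolysis splits glucose into pyruvate, and lactate dehydrogenase then turns pyruvate into lactate, which leaves the cell through monocarboxylate transporters. Hypoxia-inducible factors (HIF) are transcription factors whose alpha subunits are hydroxylated by oxygen-dependent prolyl hydroxylases, bound by the von Hippel-Lindau protein and degraded, so that low oxygen lets them build up. They bind DNA at a short core sequence and raise genes of glucose uptake, glycolysis, mitophagy and pH control. Many of these genes also respond to growth factor and nutrient signals.

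Of the 46 members matched, all 46 passed the filter on low counts, 27 rose, 4 fell and 15 did not pass the test in NPS-EMSC (edgeR quasi-likelihood test at an adjusted p of 0.05, with the Benjamini-Hochberg method applied to the 14505 genes that passed the filter). Over all genes tested, 29.7% were called higher and 29.5% lower, or 59.3% in either direction. Among the members 58.7% were called higher and 8.70% lower. A called increase of at least 1.5-fold was seen in 13 members (28.3%, against 11.5% of all genes), and a called decrease of that size in Ndrg1 alone (2.17%, against 15.0% of all genes). The median log2 fold change, NPS-EMSC minus EMSC, was 0.30 over the members and -0.0048 over all genes tested. The libraries of the groups did not overlap in 32 of 46 members (69.6%), where 64.7% of all genes did so. The increases were uneven: Egln3, Pfkfb3, Slc16a3 and Bnip3 rose by more than 1 on the log2 scale, while Hk1, Gpi, Pfkm, Eno1 and P4ha2 had values within 0.01 of 0.

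**Figure D1:**
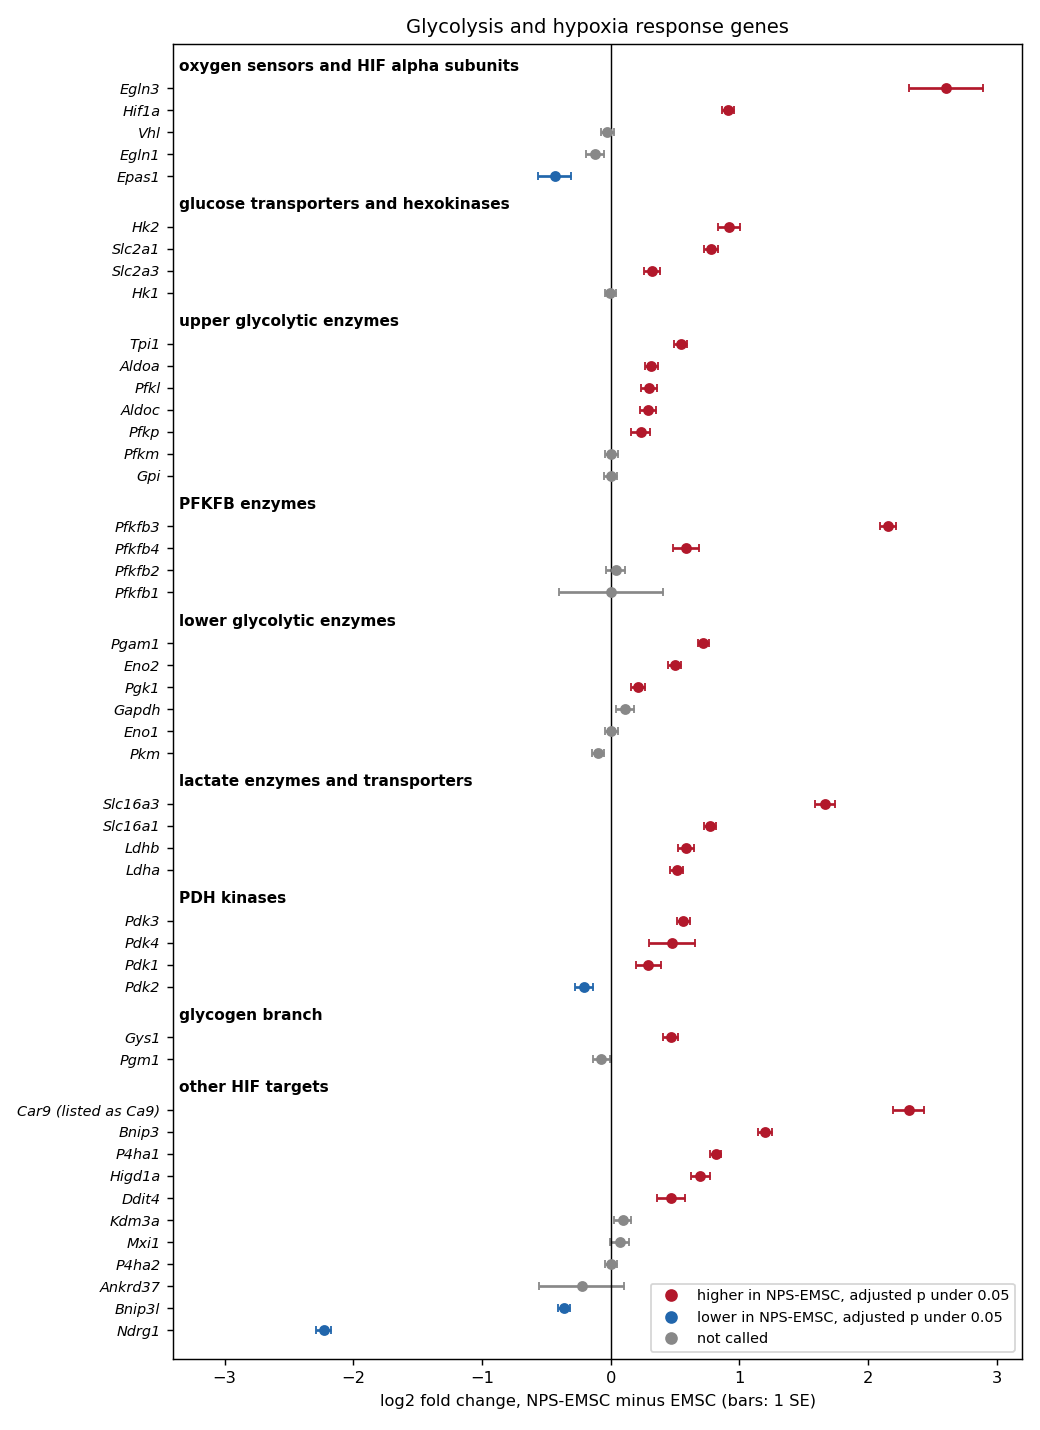
Log2 fold change of each member tested (NPS-EMSC minus EMSC, horizontal axis; bars are 1 standard error), grouped by role, with called members in colour. Egln3, Car9 and Pfkfb3 lie above 2 and Ndrg1 lies at -2.23, while most enzymes of the central pathway lie between 0 and 0.8.

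Promoter sequences are shown for the 5 members with the largest increases from the counts, all at least 2-fold, and for Ankrd37 and P4ha2. These last did not pass the test, and their promoters hold 5 matches to the HIF core each. Ldha, with 6 matches, and Pdk3, with 5, were called higher, and their promoters are not shown. Windows run from 250 bases before to 50 bases after the annotated start and come from RefSeq, build GRCr8. The HIF core was searched as ACGTG and GCGTG on both strands, and capitals mark each match. The palindrome CACGTG, the E-box bound by MYC and USF factors, holds ACGTG on both strands and is counted as 2 matches.
Egln3 (chr6:77410966-77411265, minus strand): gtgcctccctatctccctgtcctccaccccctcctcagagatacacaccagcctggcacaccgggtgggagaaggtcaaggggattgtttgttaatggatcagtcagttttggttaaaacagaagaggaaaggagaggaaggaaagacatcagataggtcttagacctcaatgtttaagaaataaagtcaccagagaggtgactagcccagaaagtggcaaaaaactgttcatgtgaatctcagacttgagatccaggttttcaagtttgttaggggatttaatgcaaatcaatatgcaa
Car9 (chr5:62558774-62559073, plus strand): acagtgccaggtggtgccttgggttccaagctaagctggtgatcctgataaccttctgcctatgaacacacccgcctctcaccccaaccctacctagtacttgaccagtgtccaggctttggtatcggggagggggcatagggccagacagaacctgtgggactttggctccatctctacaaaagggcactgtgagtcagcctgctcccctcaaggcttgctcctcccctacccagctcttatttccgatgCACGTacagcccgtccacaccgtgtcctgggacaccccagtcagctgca
Pfkfb3 (chr17:71944683-71944982, plus strand): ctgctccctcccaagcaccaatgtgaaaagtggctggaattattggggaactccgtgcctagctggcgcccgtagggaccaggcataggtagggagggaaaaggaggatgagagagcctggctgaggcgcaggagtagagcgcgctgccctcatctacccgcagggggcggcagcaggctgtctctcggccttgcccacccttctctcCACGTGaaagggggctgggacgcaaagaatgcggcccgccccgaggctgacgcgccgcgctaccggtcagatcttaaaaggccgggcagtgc
Slc16a3 (chr10:106712078-106712377, plus strand): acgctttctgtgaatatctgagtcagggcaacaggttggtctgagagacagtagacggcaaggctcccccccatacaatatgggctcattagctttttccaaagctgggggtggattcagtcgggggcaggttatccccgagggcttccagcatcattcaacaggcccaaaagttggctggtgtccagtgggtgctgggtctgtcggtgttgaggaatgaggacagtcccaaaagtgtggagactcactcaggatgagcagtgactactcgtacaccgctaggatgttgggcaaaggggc
Bnip3 (chr1:203154913-203155212, minus strand): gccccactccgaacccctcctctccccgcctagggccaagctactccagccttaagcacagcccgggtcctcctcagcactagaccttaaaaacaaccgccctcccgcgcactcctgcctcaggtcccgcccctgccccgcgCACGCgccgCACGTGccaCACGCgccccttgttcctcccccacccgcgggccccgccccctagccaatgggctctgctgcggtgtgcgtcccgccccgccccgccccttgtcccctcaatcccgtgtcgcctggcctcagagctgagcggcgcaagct
Ankrd37 (chr16:53001257-53001556, plus strand): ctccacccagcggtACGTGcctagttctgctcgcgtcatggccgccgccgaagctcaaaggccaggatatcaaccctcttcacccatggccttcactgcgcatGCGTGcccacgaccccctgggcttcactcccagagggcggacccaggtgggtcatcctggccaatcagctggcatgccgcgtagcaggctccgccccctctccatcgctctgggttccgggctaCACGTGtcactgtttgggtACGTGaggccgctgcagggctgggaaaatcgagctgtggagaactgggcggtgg
P4ha2 (chr10:38743644-38743943, plus strand): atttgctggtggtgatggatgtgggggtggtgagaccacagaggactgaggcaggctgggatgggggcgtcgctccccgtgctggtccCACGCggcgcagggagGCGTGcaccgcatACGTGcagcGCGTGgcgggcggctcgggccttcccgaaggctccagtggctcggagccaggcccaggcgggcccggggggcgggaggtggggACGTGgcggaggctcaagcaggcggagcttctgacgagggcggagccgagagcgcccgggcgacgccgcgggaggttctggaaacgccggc
Pfkfb3 had a single CACGTG 42 to 37 bases before its start, and Bnip3 had CACGTG flanked by a GCGTG core on either side, all within 108 to 86 bases before its start. Car9 had 1 core, at bases 2 to 6 after the start. No core was found in the windows of Egln3 and Slc16a3, which says only that these letters are not in these windows. Sequence entries were found for 44 of the 48 members, with 49 windows in all because Aldoa, Kdm3a, Eno1 and Hk1 had several starts. The core stood in 34 of the 49 windows (69.4%), in 20 of 28 windows of members called higher (71.4%, Car9 included) and in 12 of 18 windows of members not called (66.7%). Of the windows of all genes tested, 58.6% held it, and of all 33469 windows of that length, 41.6%. The members' windows had a median G and C content of 63.3%, against 60.0% for the genes tested and 51.7% for all windows. At least 2 matches stood in 53.6% of the windows of members called higher, 27.8% of those of members not called and 31.0% of those of all genes tested. These shares are descriptions, and a match is not a binding site.

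The alpha subunits of the hypoxia-inducible factors went in opposite directions. Hif1a, the broadly expressed alpha subunit, had 69.2, 64.0 and 68.2 FPKM (fragment counts scaled to gene length and to the library's counted reads) in the NPS-EMSC libraries, against 36.5, 37.1 and 36.7 FPKM in the EMSC libraries. Every NPS-EMSC library was above every EMSC library, and the gene rose 1.88-fold (log2 fold change 0.91, SE 0.05, adjusted p = 6.90e-15). Epas1, which encodes HIF-2 alpha, was far less abundant, at 1.59, 1.91 and 2.11 FPKM in NPS-EMSC, against 2.95, 2.43 and 2.46 FPKM in EMSC. Its groups did not overlap either, and it fell by 0.44 on the log2 scale (SE 0.13, adjusted p = 0.00472). Hif1a held 97.3% ± 0.411 of the summed FPKM of the pair in NPS-EMSC and 93.4% ± 0.725 in EMSC (SD, n = 3 each). HIF alpha subunits are controlled mainly through the stability of the protein, which transcript levels do not measure.

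Of the prolyl hydroxylases that mark HIF alpha for degradation, Egln3 rose. It is itself a classical HIF target, although its window above held no core, and had 1.57, 1.17 and 1.25 FPKM in NPS-EMSC, against 0.239, 0.238 and 0.154 FPKM in EMSC. The counts behind these values were 173, 129 and 139 reads in NPS-EMSC and 27, 27 and 17 reads in EMSC. The groups lay far apart, with a log2 fold change of 2.60 from the counts (SE 0.29, adjusted p = 1.89e-08). On log2(FPKM + 1), where the added 1 is large beside such low levels, the difference of Egln3 was 0.94, below the 2.15 of Car9 and the 2.03 of Pfkfb3 on that scale. Egln1, the main oxygen sensor in most tissues, stayed far more abundant per length than Egln3. It was at 10.5 ± 0.236 FPKM in NPS-EMSC and 11.8 ± 1.05 FPKM in EMSC (SD, n = 3 each), and did not pass (log2 fold change -0.12, SE 0.07, adjusted p = 0.147). Without EMSC replicate 3 it was called lower, with a log2 fold change of -0.19 and adjusted p = 0.0295. Egln3 made up 11.2% ± 1.41 of the summed FPKM of Egln1 and Egln3 in NPS-EMSC and 1.74% ± 0.282 in EMSC. Egln2, a further HIF prolyl hydroxylase gene outside the set, is not in this sum. It was more abundant than either, at 14.8 ± 0.616 FPKM in NPS-EMSC and 18.4 ± 1.12 FPKM in EMSC. Vhl, the von Hippel-Lindau gene, had a log2 fold change of -0.02 (SE 0.05, adjusted p = 0.712).

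**Figure D2:**
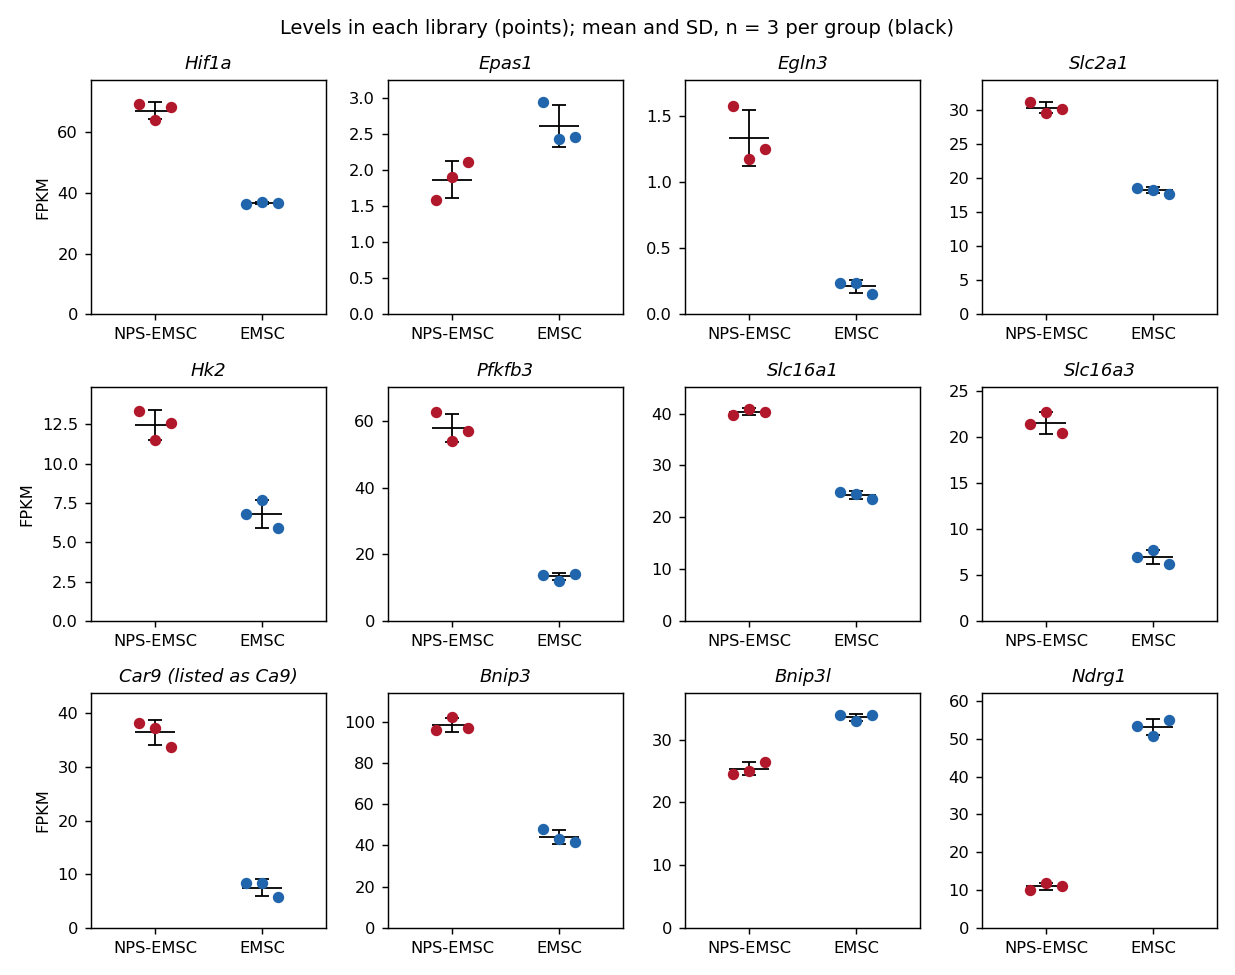
FPKM (vertical axis, from 0) of 12 members in each library, NPS-EMSC left and EMSC right, with the mean and SD of 3 libraries in black. The 12 were picked for display and all were called, and their groups do not overlap in any panel. On scaled counts the groups did not overlap in 32 of 46 members and in 64.7% of all genes tested. Epas1, Bnip3l and Ndrg1 are the panels that are lower in NPS-EMSC.

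Glucose uptake and phosphorylation showed increases in 3 of 4 members (75%, against 29.7% of all genes tested). Slc2a1, which encodes the glucose transporter GLUT1, had 31.3, 29.6 and 30.2 FPKM in NPS-EMSC, against 18.6, 18.3 and 17.7 FPKM in EMSC. These values are far apart, and the gene rose 1.72-fold (log2 fold change 0.78, SE 0.05, adjusted p = 3.77e-12). Slc2a3, the GLUT3 gene, rose less, by 0.32 on the log2 scale (SE 0.06), to 13.0 ± 0.368 FPKM in NPS-EMSC, against 10.7 ± 0.384 FPKM in EMSC. Hk2, the inducible hexokinase, had 13.4, 11.5 and 12.6 FPKM in NPS-EMSC, against 6.79, 7.68 and 5.94 FPKM in EMSC, and rose 1.89-fold (log2 fold change 0.92, SE 0.09, adjusted p = 5.29e-09). Hk1, the constitutive hexokinase, was at 47.5 ± 1.81 FPKM in NPS-EMSC and 49.0 ± 0.893 FPKM in EMSC and did not pass (log2 fold change -0.0013, SE 0.05, adjusted p = 0.982). Hk1 remained the more abundant of the pair per length, and the share of Hk2 in their summed FPKM was 20.8% ± 1.27 in NPS-EMSC and 12.2% ± 1.42 in EMSC.

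The enzyme family that sets the level of fructose 2,6-bisphosphate, the strongest activator of phosphofructokinase, was dominated by Pfkfb3. Pfkfb3 encodes the isozyme with the most kinase over phosphatase activity and has the lone CACGTG just before its start, and had 62.6, 54.2 and 57.0 FPKM in NPS-EMSC, against 14.0, 12.1 and 14.1 FPKM in EMSC. Its lowest NPS-EMSC library stood well above its highest EMSC library, with a fold change of 4.46 (log2 fold change 2.16, SE 0.06, adjusted p = 6.60e-17). Pfkfb4 rose 1.5-fold, to 3.26 ± 0.0897 FPKM in NPS-EMSC, against 2.24 ± 0.224 FPKM in EMSC (SD, n = 3 each). Pfkfb2, the heart isozyme, had a log2 fold change of 0.04 (SE 0.08, adjusted p = 0.672), and Pfkfb1, the liver isozyme, was close to absent at 0.0774 to 0.159 FPKM in NPS-EMSC and 0.0814 to 0.141 FPKM in EMSC. Pfkfb3 held 89.8% ± 0.996 of the family's summed FPKM in NPS-EMSC and 70.7% ± 1.15 in EMSC.

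The enzymes of the central pathway moved much less than Pfkfb3. Among the 7 members from glucose-6-phosphate isomerase to triosephosphate isomerase, 5 rose (71.4%, against 29.7% of all genes tested), and no increase reached 1.5-fold. None fell (0 called lower by edgeR, DESeq2 or limma-voom, and 0 lower at an unadjusted p under 0.05). Tpi1, triosephosphate isomerase, had the largest of these changes, with 193, 209 and 199 FPKM in NPS-EMSC, against 150.2, 145 and 129.6 FPKM in EMSC. The groups were separate, and the log2 fold change was 0.55 (SE 0.05, adjusted p = 1.10e-09). Aldoa, the main aldolase and the second most abundant member per length, rose by 0.32 (SE 0.05) to 468 ± 13.6 FPKM in NPS-EMSC, against 387 ± 19.6 FPKM in EMSC. Its brain isozyme Aldoc rose by 0.29, so that the aldolase pair kept nearly the same makeup, with Aldoa at 93.8% ± 0.148 in NPS-EMSC and 93.7% ± 0.271 in EMSC. Of the phosphofructokinases, which commit glucose to glycolysis, the liver form Pfkl rose by 0.30 (SE 0.06) and the platelet form Pfkp by 0.23 (SE 0.07, adjusted p = 0.00817). The muscle form Pfkm had a log2 fold change of 0.0069 (SE 0.05), and Gpi, glucose-6-phosphate isomerase, one of 1.1e-04 (SE 0.05, adjusted p = 0.999).

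In the lower part of the pathway, 3 of 6 members rose (50%, against 29.7% of all genes tested). None fell (0 called lower by edgeR, DESeq2 or limma-voom, and 0 lower at an unadjusted p under 0.05). Pgam1, phosphoglycerate mutase, had 300.1, 294 and 286 FPKM in NPS-EMSC, against 186, 185 and 179 FPKM in EMSC. This was the largest increase among the enzymes of the lower part, 1.65-fold (log2 fold change 0.72, SE 0.04, adjusted p = 2.86e-13). Pgk1, phosphoglycerate kinase, rose by 0.22 (SE 0.05, adjusted p = 0.00159). Of the enolases, the neuronal isozyme Eno2 rose by 0.50 (SE 0.05) to 60.0 ± 1.79 FPKM in NPS-EMSC, against 43.8 ± 2.59 FPKM in EMSC. The more abundant Eno1 was at 268 ± 4.20 FPKM in NPS-EMSC and 275 ± 24.9 FPKM in EMSC, with a log2 fold change of 0.0061 (SE 0.05). Gapdh, the most abundant member per length, was at 543, 627 and 580.0 FPKM in NPS-EMSC and 630.2, 541 and 503 FPKM in EMSC. Its groups overlapped and it did not pass (log2 fold change 0.11, SE 0.07, adjusted p = 0.201), but it was called higher without EMSC replicate 1 (0.19, adjusted p = 0.00384). Pkm, pyruvate kinase, was lower in each NPS-EMSC library, at 216, 220.0 and 210.2 FPKM, against 261, 227 and 226 FPKM in EMSC. It did not pass (log2 fold change -0.10, SE 0.05, adjusted p = 0.0960), but was called lower when EMSC replicate 2 was left out (-0.12, adjusted p = 0.0480) or EMSC replicate 3 (-0.14, adjusted p = 0.0384).

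Summed over the 17 genes from hexokinase to lactate dehydrogenase, the glycolytic enzymes took 0.564%, 0.593% and 0.562% of all counted reads in NPS-EMSC, against 0.534%, 0.498% and 0.467% in EMSC. The NPS-EMSC libraries were the 3 highest, with a ratio of the means of 1.15. The ratio was 1.16 on summed FPKM and 1.18 on summed counts scaled with the TMM factors used in the test. The libraries within each group differed among themselves in the same direction over most of these genes. EMSC replicate 1 was the highest EMSC library in 14 of the 17 genes, and EMSC replicate 3 was the lowest in 12. Among the NPS-EMSC libraries, replicate 2 was the highest in 11 of the 17 genes, and replicate 3 was the lowest in 10. Of the 13 steps from glucose uptake to lactate transport, the groups did not overlap in 10, which were higher in NPS-EMSC in 9 and lower in 1, pyruvate kinase. Of all single genes tested, 64.7% did not overlap either, on scaled counts rather than FPKM. The ratio of mean summed FPKM, NPS-EMSC over EMSC, was 1.5 for the glucose transporters at the entry and 1.98 for the lactate transporters at the exit, and lay between 0.906 and 1.6 at every enzyme step between them. Many of these enzymes have pseudogene copies in rodent genomes, and how reads shared with such copies were counted is not given in the sources used here.

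**Figure D3:**
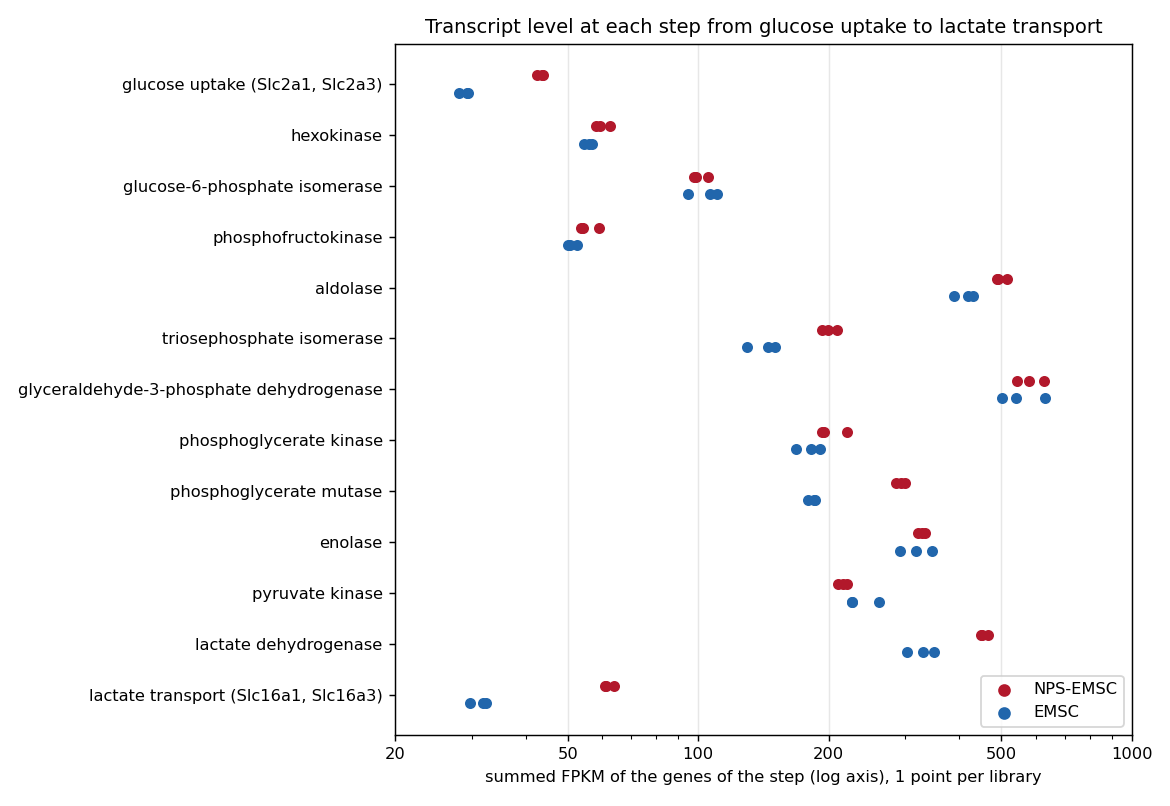
Summed FPKM of the genes of each step (horizontal log axis), with 1 point per library, NPS-EMSC above EMSC. The groups are farthest apart at lactate transport, where the NPS-EMSC libraries lie between 60.9 and 63.8 and the EMSC libraries between 29.7 and 32.4, and they overlap at glucose-6-phosphate isomerase, glyceraldehyde-3-phosphate dehydrogenase and enolase.

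All 4 genes of lactate production and export rose, where 29.7% of all genes tested did. Slc16a3, which encodes MCT4, the low-affinity lactate exporter of glycolytic cells, had 21.5, 22.8 and 20.5 FPKM in NPS-EMSC, against 6.95, 7.79 and 6.21 FPKM in EMSC. The groups were far apart, and the gene rose 3.18-fold (log2 fold change 1.67, SE 0.08, adjusted p = 2.13e-15). Slc16a1, which encodes the more widely expressed transporter MCT1, had 39.7, 41.0 and 40.4 FPKM in NPS-EMSC, against 24.9, 24.6 and 23.5 FPKM in EMSC, and rose 1.71-fold (adjusted p = 3.07e-13). Slc16a3 made up 34.8% ± 1.11 of the summed FPKM of both transporters in NPS-EMSC and 22.3% ± 1.65 in EMSC. Ldha, the lactate dehydrogenase subunit that HIF induces, had 418, 433 and 417 FPKM in NPS-EMSC, against 326, 308 and 282 FPKM in EMSC (log2 fold change 0.51, SE 0.05, adjusted p = 1.80e-09). Ldhb, the heart-type subunit, rose by 0.59 (SE 0.06), and the share of Ldha in the pair overlapped between the groups, at 92.7% ± 0.185 in NPS-EMSC and 93.1% ± 0.328 in EMSC.

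**Figure D4:**
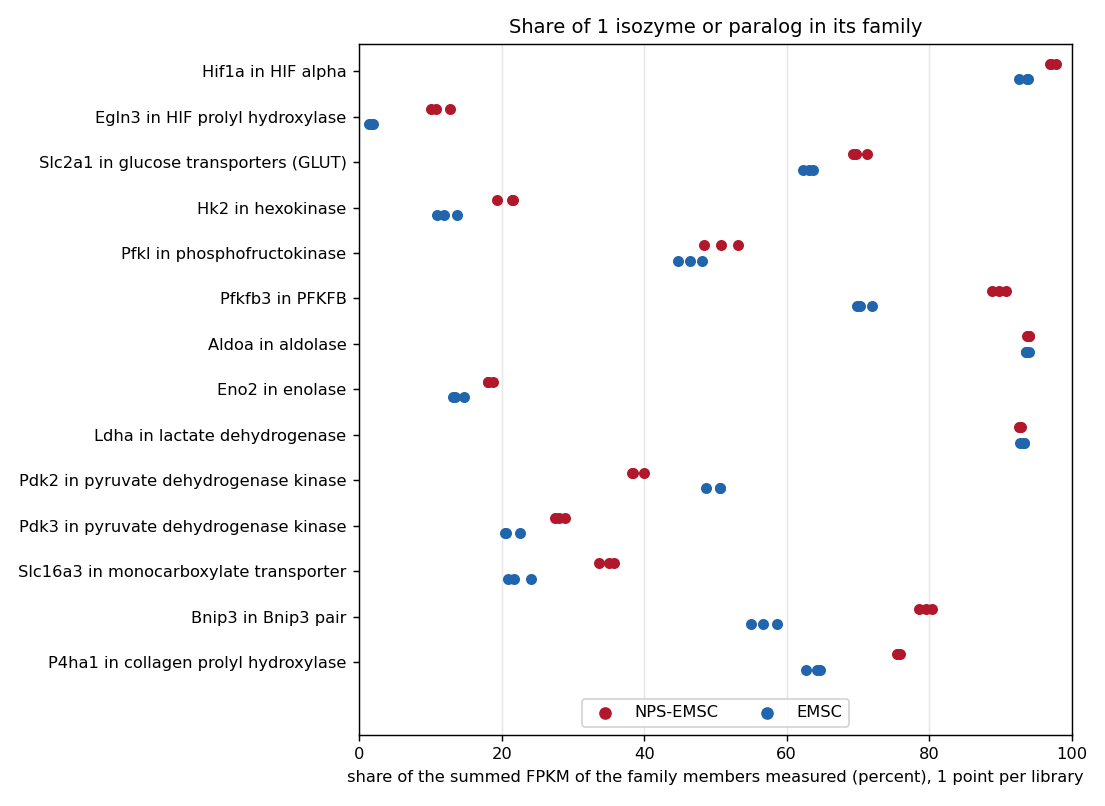
Share of 1 isozyme or paralog in the summed FPKM of those genes of its family that are in the set (horizontal axis, percent). Each library is 1 point, NPS-EMSC above EMSC. Bnip3, Pfkfb3, Slc16a3 and P4ha1 take a larger share in every NPS-EMSC library and Pdk2 a smaller one, while the shares of Aldoa and Ldha overlap.

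All 4 kinases that switch off pyruvate dehydrogenase, and so keep pyruvate out of the mitochondria, were called, where 59.3% of all genes tested were. Of these, 3 were higher and 1 lower, and no change reached 1.5-fold. Their median absolute log2 fold change was 0.38, against 0.34 over all genes tested. Pdk3 was the firmest, with 10.2, 10.1 and 10.2 FPKM in NPS-EMSC, against 7.44, 6.62 and 7.17 FPKM in EMSC (log2 fold change 0.57, SE 0.05, adjusted p = 3.54e-10). Pdk2 fell by 0.21 on the log2 scale (SE 0.07, adjusted p = 0.0149) and remained the most abundant of the 4 per length, at 14.0 ± 0.563 FPKM in NPS-EMSC and 16.7 ± 1.34 FPKM in EMSC. Pdk1, the HIF target of the family, rose by 0.29 (SE 0.10, adjusted p = 0.0130), and Pdk4, which follows fatty acid and glucocorticoid signals, by 0.48 (SE 0.18, adjusted p = 0.0231). The calls of these last 3 genes did not hold when certain single libraries were left out, although the direction was kept. Pdk1 was not called without NPS-EMSC replicate 2 (adjusted p = 0.0515) or EMSC replicate 3 (0.0710). Pdk2 was not called without NPS-EMSC replicate 1 (adjusted p = 0.0605), NPS-EMSC replicate 3 (0.0518) or EMSC replicate 1 (0.0927). Pdk4 was not called without NPS-EMSC replicate 3 (adjusted p = 0.0990), EMSC replicate 2 (0.0556) or EMSC replicate 3 (0.110). In the glycogen branch, the muscle-type glycogen synthase gene Gys1 rose by 0.47 (SE 0.06) to 26.8 ± 1.2 FPKM in NPS-EMSC, against 20.03 ± 1.64 FPKM in EMSC. Pgm1, phosphoglucomutase, had a log2 fold change of -0.07 (SE 0.07, adjusted p = 0.364).

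The remaining HIF targets were divided, with 4 of 10 members higher (40%, against 29.7% of all genes tested), 2 lower (20%, against 29.5%) and 4 not called. Bnip3, a mitochondrial receptor for mitophagy, had 95.8, 102 and 97.1 FPKM in NPS-EMSC, against 47.9, 43.2 and 41.4 FPKM in EMSC, and rose 2.30-fold (log2 fold change 1.2, SE 0.05, adjusted p = 3.43e-16). Its paralog Bnip3l, the mitophagy receptor also called Nix, had 24.6, 24.96 and 26.5 FPKM in NPS-EMSC, against 33.9, 32.9 and 33.9 FPKM in EMSC. The groups of both genes were separate but in opposite order, and Bnip3l fell by 0.36 (SE 0.05, adjusted p = 1.78e-07). Bnip3 made up 79.5% ± 0.916 of the summed FPKM of the pair in NPS-EMSC and 56.8% ± 1.78 in EMSC, a shift of 22.7 percentage points, against 19.1 points for Pfkfb3 in its family. On shares of CPM the order turned, with 24.8 points for Bnip3 and 26.0 points for Pfkfb3.

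P4ha1 and P4ha2, the catalytic subunits of the collagen prolyl hydroxylase, also parted. P4ha1 had 148, 150.2 and 149.6 FPKM in NPS-EMSC, against 89.5, 90.0 and 82.7 FPKM in EMSC, and rose 1.76-fold (log2 fold change 0.82, SE 0.05, adjusted p = 4.94e-14). P4ha2 was at 48.04 ± 0.838 FPKM in NPS-EMSC and 49.4 ± 0.697 FPKM in EMSC, with overlapping libraries and a log2 fold change of 0.0045 (SE 0.05, adjusted p = 0.941). Higd1a, a small mitochondrial protein gene induced by hypoxia, rose by 0.70 (SE 0.07, adjusted p = 1.07e-08). Ddit4, also known as Redd1, an inhibitor of mTORC1, rose by 0.47 (SE 0.11, adjusted p = 0.00170).

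Ndrg1, a stress-responsive gene used as a hypoxia marker in many tumours, went the other way. It had 10.03, 11.8 and 11.1 FPKM in NPS-EMSC, against 53.4, 50.8 and 55.0 FPKM in EMSC. This was the largest decrease of the set, with every NPS-EMSC library far below every EMSC library and a log2 fold change of -2.23 (SE 0.06, adjusted p = 5.56e-21). Ankrd37, another HIF target, was low throughout, at 1.46, 1.81 and 1.2 FPKM in NPS-EMSC and 2.39, 1.6 and 1.42 FPKM in EMSC, and did not pass (log2 fold change -0.23, SE 0.33, adjusted p = 0.579). Kdm3a, a histone demethylase gene, and Mxi1, a MYC antagonist gene, had log2 fold changes of 0.09 (adjusted p = 0.231) and 0.07 (adjusted p = 0.412). Kdm3a was called higher without EMSC replicate 3 (0.17, adjusted p = 0.0274).

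Carbonic anhydrase 9, a membrane enzyme that handles the acid load of glycolytic cells and a standard hypoxia marker, was read from the row of its older symbol. Car9 had 38.3, 37.3 and 33.8 FPKM in NPS-EMSC, against 8.34, 8.45 and 5.79 FPKM in EMSC. The groups were far apart, and Car9 was 4.98-fold higher in NPS-EMSC (log2 fold change 2.32, SE 0.12, adjusted p = 2.77e-08). Car12 was close to the limit of detection, with 30, 22 and 8 reads in NPS-EMSC and 2, 1 and 9 reads in EMSC. Its groups overlapped and it did not pass the filter on low counts.

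Other genes of the pathway were taken from lists of gene names, which were also chosen with earlier results of these data known. Of all genes tested, 29.7% were called higher and 29.5% lower. Of 13 tested regulators of HIF outside the set, 7 rose (53.8%) and 1 fell (7.69%). Cited2, a HIF-induced inhibitor of HIF that competes for its coactivators, rose to 235 ± 0.982 FPKM in NPS-EMSC, against 87.4 ± 2.09 FPKM in EMSC (log2 fold change 1.47, SE 0.04, adjusted p = 9.76e-20). Elob and Rbx1, subunits of the ubiquitin ligase that acts with the von Hippel-Lindau protein, rose by 0.35 and 0.38, and Egln2, the remaining HIF prolyl hydroxylase gene, fell by 0.26 (SE 0.06, adjusted p = 5.53e-04). Of 32 tested hypoxia-induced genes outside the set, 20 rose (62.5%) and 7 fell (21.9%), with a median log2 fold change of 0.38. The angiogenic factor gene Vegfa, the vasodilator peptide gene Adm and the glycoprotein hormone gene Stc2 rose by 1.15, 1.31 and 1.33. The largest increase in the list, named after its values were seen, was 2.78 (SE 0.11) for Angptl4, an inhibitor of lipoprotein lipase. Anxa2, a membrane-binding annexin gene, fell to 126 ± 9.87 FPKM in NPS-EMSC, against 441 ± 4.24 FPKM in EMSC (log2 fold change -1.76, SE 0.05).

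The side branches of glucose metabolism differed from each other, and are set beside the 29.7% of all genes tested called higher and the 29.5% called lower. In the pentose phosphate pathway, 6 of 7 genes rose (85.7%), among them the transaldolase gene Taldo1 by 0.74 (SE 0.05, adjusted p = 2.04e-12) and the transketolase gene Tkt by 0.58. The exception was the ribose isomerase gene Rpia, which fell by 0.48 (SE 0.09). Of 16 genes of the tricarboxylic acid cycle, 12 rose (75%) and 2 fell (12.5%), and the fumarate hydratase gene Fh rose by 0.60. Of 10 genes of pyruvate entry into mitochondria, 5 rose (50%), including the pyruvate carrier gene Mpc1 (0.47) and the dehydrogenase subunit gene Pdhb (0.51). None of the 10 fell (0 called lower by edgeR, DESeq2 or limma-voom, and 0 lower at an unadjusted p under 0.05). Glycogen metabolism was divided, with 5 of 14 genes higher (35.7%) and 3 lower (21.4%), shares not far from those of all genes. Gyg1, glycogenin, the primer of glycogen synthesis, rose to 129 ± 9.86 FPKM in NPS-EMSC, against 25.5 ± 0.802 FPKM in EMSC (log2 fold change 2.38, SE 0.06, adjusted p = 1.96e-21), while the phosphorylase gene Pygb fell by 0.40. None of the 5 tested gluconeogenesis genes was called (0 by edgeR, DESeq2 or limma-voom, and 0 at an unadjusted p under 0.05 in edgeR).

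Among 7 tested glycolytic isozymes and side enzymes outside the set, 4 rose and 2 fell (57.1% and 28.6%, against 29.7% and 29.5% of all genes tested). Bpgm, which makes 2,3-bisphosphoglycerate, rose to 66.1 ± 3.49 FPKM in NPS-EMSC, against 33.5 ± 3.42 FPKM in EMSC (log2 fold change 1.02, SE 0.06, adjusted p = 3.84e-12), and the muscle enolase gene Eno3 fell by 0.93. Hk3, a hexokinase of blood cells, was called lower from a trace level, 0.00261 ± 0.00452 FPKM in NPS-EMSC and 0.209 ± 0.0746 FPKM in EMSC. Of 15 other sugar and monocarboxylate transporters, 6 rose (40%) and 5 fell (33.3%), shares not far from those of all genes. The largest decrease was in Slc2a13, the proton myo-inositol transporter gene, at 1.001 ± 0.0418 FPKM in NPS-EMSC and 12.3 ± 0.821 FPKM in EMSC (log2 fold change -3.57, SE 0.08, adjusted p = 4.17e-22), and the monocarboxylate transporter chaperone genes Bsg and Emb rose by 0.23 and 0.26.

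**Figure D5:**
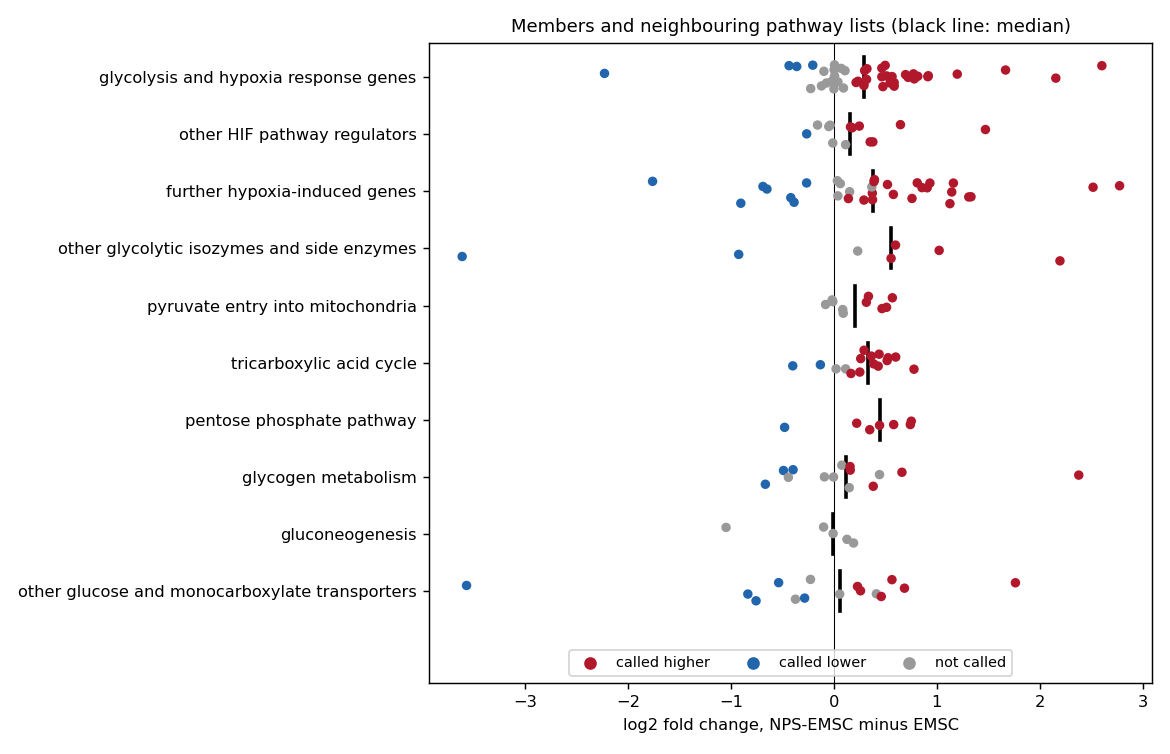
Log2 fold changes (NPS-EMSC minus EMSC, horizontal axis) of the members and of 9 neighbouring lists, 1 point per gene tested, coloured by call, with the median of each list as a black line. Medians run from -0.0074 for gluconeogenesis to 0.56 for the other glycolytic isozymes and side enzymes, and the members' median is 0.30.

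Marker genes of some other cell types moved with the groups, where 29.7% of all genes tested were called higher and 29.5% lower. The mesenchymal list had a summed level of 4067 to 4199 FPKM in NPS-EMSC and 3929 to 4285 FPKM in EMSC, with Col1a2 the most abundant of its 10 genes, and 7 rose and 3 fell. The leukocyte and macrophage list stood at 24.6 to 26.3 FPKM in NPS-EMSC and 52.9 to 59.0 FPKM in EMSC, with 6 of 8 tested genes lower and 2 higher. Lyz2 led it over all libraries, at 2.76 ± 0.684 FPKM in NPS-EMSC and 38.8 ± 5.29 FPKM in EMSC. Ptprc (CD45) was at 0.00166 FPKM in NPS-EMSC and 0.153 FPKM in EMSC on average. The 2 higher genes were Cd14 and Cd74. Cd14 was at 17.5 ± 0.443 FPKM in NPS-EMSC and 8.68 ± 1.49 FPKM in EMSC, and was the most abundant gene of the list in NPS-EMSC. Cd74 was at 1.37 ± 0.345 FPKM in NPS-EMSC and 0.793 ± 0.271 FPKM in EMSC, with overlapping libraries. The glial list, led by S100b, summed to 2.82 to 3.31 FPKM in NPS-EMSC and 13.5 to 14.1 FPKM in EMSC, with all 3 tested genes lower. The epithelial list, led by Krt18, summed to 6.10 to 7.78 FPKM in NPS-EMSC and 2.16 to 2.42 FPKM in EMSC, with both tested genes higher. Krt5, not tested, had 0, 0 and 0 reads in NPS-EMSC and 7, 3 and 18 reads in EMSC, and Krt14 had 0, 0 and 0 reads in NPS-EMSC and 1, 0 and 0 reads in EMSC. The endothelial and neuronal lists, led by Pecam1 and Tubb3, stayed under 1.3 FPKM in sum in every library. None of the 3 tested endothelial genes was called, and of the 2 tested neuronal genes 1 rose and 1 fell. Of the erythroid list only Alas2 had a row, with 0 reads in NPS-EMSC. The part of these differences in the results was not tested, and in bulk samples fewer cells of a type and less RNA per cell cannot be told apart.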

How the data were processed

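RNA sequencing data of 6 libraries were used. The authors deposited raw read counts per gene and an FPKM table, and dividing the deposited counts by the FPKM values gave 1 fixed length per gene, so the FPKM table is the counts rescaled by column total. Per the submitters' processing notes, R 3.2.0, DESeq, StringTie, HTSeq, HISAT2 and fastp were in use, with no role given. For build, annotation and strand setting, the answer is not given in the sources used here. Groups follow the cell type label.

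The deposited counts were tested with edgeR 4.0.16 in R 4.3.3 (quasi-likelihood, robust, TMM factors, filterByExpr with a minimum count of 10 and total of 15, prior count of 2), with Benjamini-Hochberg adjustment over 14505 genes and a threshold of 0.05. The SE of a log2 fold change is its size over the root of its F value. Levels are the deposited FPKM, which lack the TMM factors of 0.978 to 1.03. Isozyme shares come from FPKM; sums and shares are given without p-values, since 3 against 3 libraries cannot go below 0.1 and the members were chosen with earlier results of these data known, as were the neighbouring lists. Of these lists, up to 4 called genes by smallest p are named, plus a gene alone in its direction; Bsg and Angptl4 were named after their values were seen. Some genes that this rule picks are not reported here. Of the marker lists, the most abundant gene over all libraries is named, and Ptprc, Cd14, Cd74, Krt5, Krt14 and Alas2 were added after their values were seen. In simulated counts with known changes, 42% of 1.2-fold, 80% of 1.5-fold, 94% of 2-fold and 100% of 4-fold changes were recovered (50 genes each, of 14302 tested), and 8 of 14102 unchanged genes were called. Only these few genes, all at 1 CPM or more, were changed, whereas 59.3% of the genes tested were called in the data. The adjusted threshold therefore acts differently, and these rates need not hold for the data. Same-numbered libraries of the groups did not deviate together (correlations of -0.0389 to 0.0460, against -0.0822 to 0.0512 for libraries of different number). With 3 libraries per group this cannot decide whether the numbers mark pairs. The labels do not say so, and the fit was unpaired. Replicates differed by more than counting noise, with a chi-square per degree of freedom of 5.08 to 12.6. Alternatives were upper-quartile and RLE factors, limma 3.58.1 (voom, and log2 FPKM with a pseudocount of 1 or 0.1), DESeq2 1.42.0, other filters, a replicate block, a stricter threshold and leaving out each library. Of the 48 members, 17 overlap another annotated gene in RefSeq GRCr8 (Tpi1 with Spsb2 and Slc16a3 with Csnk1d, for example), where reads can be split.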

Additional observations from a re-analysis of the deposited data

How the results depend on the processing

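Between 24 and 28 members were called higher and between 3 and 6 lower over all alternatives tried, and the number of genes called in all ran from 7590 to 8914. Leaving out 1 library gave 26 to 28 members higher and 3 to 6 lower. The fit with the replicate number as a block gave 27 higher and 4 lower, out of 8588 genes called. With Car9 and Car12 added, a choice made after seeing the data, 28 were higher and 4 lower, and at an adjusted p of 0.01, 25 were higher and 3 lower. Of 797 values of single members, 725 kept their direction and call. The 49 values that changed sign all belonged to members that were not called. The log2 fold change of Hk1 was 0.0023 with RLE factors, 0.0038 with DESeq2 and 0.0017 with no filter. With upper-quartile factors it was -0.034 for Gpi, -0.027 for Pfkm, -0.031 for Pfkfb1, -0.028 for Eno1 and -0.029 for P4ha2. With a floor of 1 CPM it was -0.0099 for Gpi, -0.0032 for Pfkm, -0.0072 for Pfkfb1, -0.0039 for Eno1 and -0.0056 for P4ha2. On log2(FPKM + 1), with a filter or none, it was -0.041 for Gpi, -0.036 for Pfkm, -0.0041 for Pfkfb2, -0.034 for Eno1 and -0.039 for P4ha2. On log2(FPKM + 0.1) it was -0.042 for Gpi, -0.037 for Pfkm, -0.0054 for Pfkfb2, -0.034 for Eno1 and -0.039 for P4ha2. Pfkfb1 had -0.022 with limma-voom, -0.0050 on log2(FPKM + 1) with no filter and -0.017 with the replicate block. Without 1 library, Hk1 ran from -0.029 to 0.030, Gpi from -0.065 to 0.036, Pfkm from -0.014 to 0.032, Pfkfb1 from -0.30 to 0.21, Pfkfb2 from -0.019 to 0.080, Eno1 from -0.063 to 0.059, Ankrd37 from -0.37 to 0.0090, P4ha2 from -0.015 to 0.022 and Mxi1 from -0.0037 to 0.11. Pfkp lost its call on the FPKM scale (limma adjusted p = 0.0604 to 0.0725), as did Pgk1 (0.0947) and Pdk4 (0.0539) there with no filter. Gapdh was called higher with no filter (adjusted p = 0.0414) and Pkm lower with upper-quartile factors (0.0287). The share of Pdk1 among its kinases, NPS-EMSC minus EMSC, was 1.94 percentage points on FPKM and -0.48 on CPM. The share of Car9 over Car12 differed by -0.24 to 0.23 percentage points without 1 library. Of HIF regulators outside the set, 2 were lower with DESeq2 and 2 with no filter, against 1, and of genes of the tricarboxylic acid cycle 1 was lower with DESeq2, against 2. The cause of these changes was not tested. Depth limits the members with few reads, among them Egln3, Pfkfb1, Ankrd37 and Car12.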
